A study of Mus musculus with 15 samples.

Results

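The 8 genes described here encode the enzymes that carry farnesyl diphosphate through squalene and lanosterol to zymosterol, in the middle of cholesterol synthesis. They were chosen by gene symbol: Fdft1, Sqle, Lss, Cyp51, Tm7sf2, Msmo1, Nsdhl and Hsd17b7, which are 8 of the 54532 genes in the count tables. The rule uses no measured value, although it was set with earlier results of these data known. All 8 had enough counts to be tested in both tissues. RNA sequencing covered 9 livers, 4 on the CS diet and 5 on the PS diet, and 6 lungs, 3 on each diet. All were wild type male C57BL/6J mice, an inbred laboratory strain. The CS group ate a control diet, and the PS group the same formula with 2% phytosterols, plant sterols that resemble cholesterol. Each library came from 1 mouse, and the 6 mice with lung libraries also gave liver libraries. The labels give an age of 28 weeks for every mouse, whereas the times in the study's methods add up to a greater age.

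Cholesterol synthesis begins with the mevalonate part of the pathway, which ends in farnesyl diphosphate. FDFT1, squalene synthase, joins farnesyl diphosphate into squalene and commits it to sterols. SQLE, squalene epoxidase, adds oxygen to squalene in a rate-limiting step, and LSS, lanosterol synthase, folds the product into lanosterol, the first sterol. CYP51 removes a methyl group from lanosterol and leaves a double bond, which the sterol reductase TM7SF2 takes away. MSMO1, NSDHL and HSD17B7 then act in turn as oxidase, decarboxylating dehydrogenase and ketone reductase to remove the remaining pair of methyl groups and yield zymosterol. The transcription factor SREBP2 is known to turn on genes of this pathway when the sterol level in the endoplasmic reticulum is low. The liver makes much of the cholesterol of the body, and the lung needs sterol for its membranes and for surfactant.

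The total count per library ran from 14410117 to 17625179 in the livers and from 17934930 to 19396057 in the lungs. The labelled tissues carried their markers. The summed level of 7 hepatocyte genes was 78110 to 118400 CPM in the livers and at most 108 CPM in the lungs, where CPM is the count relative to the library size after scaling between libraries (TMM, from edgeR). The sum of 7 alveolar type II genes was 19940 to 34830 CPM in the lungs and at most 40.9 CPM in the livers. One liver stood apart: CS replicate 2 had the lowest Hsd17b7 (11.6 CPM), Cyp51 (13.0 CPM) and Tm7sf2 (64.8 CPM) of all livers. The same liver had the highest Fdft1 (50.1 CPM) and Lss (13.8 CPM) of the CS livers. Of all libraries it had the largest share of counts from the mitochondrial genome (14.4%) and the fewest genes with a count (15961). In tissue RNA, fewer cells of a type and less RNA per cell cannot be told apart.

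The genes lie on 8 chromosomes of the mouse build GRCm38. Fdft1 (ENSMUSG00000021273) is at chr14:63145150-63179578, Sqle (ENSMUSG00000022351) at chr15:59315077-59331192, Lss (ENSMUSG00000033105) at chr10:76531588-76557138 and Cyp51 (ENSMUSG00000001467) at chr5:4081145-4104746. Tm7sf2 (ENSMUSG00000024799) is at chr19:6062821-6077197, Msmo1 (ENSMUSG00000031604) at chr8:64718139-64733792, Nsdhl (ENSMUSG00000031349) at chrX:72918557-72958514 and Hsd17b7 (ENSMUSG00000026675) at chr1:169949535-169969241. The study's sources used here do not say whether reads were counted by strand, so reads of overlapping genes are uncertain. Exons of Fdft1 overlap Ctsb on the other strand over 774 bases, and those of Cyp51 overlap Akap9 on the other strand over 166 bases. Fdft1 also has a processed pseudogene, Gm6781, that is 97.4% identical over 1249 bases and held 0 to 3 counts per library. Lss overlaps the antisense gene 4930483K19Rik, with 0 to 4 counts, over 381 bases. The model of Tm7sf2 in the tables ends at 6077197, past its end at 6068373 in GENCODE release M21, and reaches over Vps51. In that release the exons of Tm7sf2 and Vps51 share 532 bases of the same strand.

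Promoters were examined because SREBP2 and its partners NF-Y and Sp1 are known to act there. RefSeq windows (GRCm38.p6) from 250 bases before to 50 bases after the gene start were at hand for 6 of the 8 genes. They were searched on both strands for the SREBP2 motifs TCACNCCA, TCACNTCA and TCACNCCAC, of which the last contains the first, for the NF-Y motif CCAAT and for the Sp1 motif GGGCGG. The NF-Y motif was found in 6 of 6 windows, against 37.4% of the 32851 windows of all genes, and the Sp1 motif in 6 of 6, against 35.7%. TCACNTCA was found in Cyp51 and Hsd17b7 (3.47% of all windows) and TCACNCCA in Msmo1 (4.36%), while TCACNCCAC was in 0 of 6 (1.24%). The sequences below are stretches of the 3 windows with an SREBP2 motif and of 2 without one, Nsdhl and Tm7sf2. Each is the longest run before the gene start that lies outside exons, or for Msmo1 and Tm7sf2 a site of 30 bases, so that some matches counted above lie outside them, among them the NF-Y match of Cyp51 and both Sp1 matches of Tm7sf2 and of Msmo1. They are given from 5′ to 3′ on the strand of the gene, with every motif match inside the stretch in capitals. A motif that lies on the opposite strand appears as its reverse complement. The sites of 30 bases of Msmo1 and Tm7sf2 lie before the RefSeq start but within the spans given above for these genes. The stretch of Cyp51 is chr5:4104747-4104947 (minus strand), that of Hsd17b7 chr1:169969242-169969408 (minus), that of Msmo1 chr8:64733730-64733759 (minus), that of Nsdhl chrX:72918412-72918520 (plus) and that of Tm7sf2 chr19:6067872-6067901 (minus).
Cyp51: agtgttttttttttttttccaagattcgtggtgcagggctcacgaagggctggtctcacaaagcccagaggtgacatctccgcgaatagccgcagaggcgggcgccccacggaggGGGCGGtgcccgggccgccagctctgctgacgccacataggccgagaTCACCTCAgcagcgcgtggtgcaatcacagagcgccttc
Hsd17b7: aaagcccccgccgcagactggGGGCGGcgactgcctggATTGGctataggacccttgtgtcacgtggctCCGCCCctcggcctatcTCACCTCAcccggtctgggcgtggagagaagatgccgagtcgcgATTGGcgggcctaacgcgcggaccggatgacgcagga
Msmo1: attcTCACTCCAtccgcgcagCCAATgact
Nsdhl: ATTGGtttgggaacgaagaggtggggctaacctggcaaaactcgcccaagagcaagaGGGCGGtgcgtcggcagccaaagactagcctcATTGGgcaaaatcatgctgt
Tm7sf2: gctgATTGGctactgtgctgggcccagggt
The SREBP2 match in Cyp51 begins 88 bases before the RefSeq start, that in Hsd17b7 117 bases before it and that in Msmo1 177 bases before it. A match is a run of letters, and no binding was measured in these mice.

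To see whether dietary phytosterols changed these genes in the liver, the 5 PS livers were compared with the 4 CS livers. Fdft1, Sqle, Lss, Cyp51, Msmo1 and Nsdhl were higher in the PS group, by 1.93-fold to 4.39-fold, and in each of these 6 genes every PS liver lay above every CS liver. Tm7sf2 and Hsd17b7 overlapped between the diets. Over all 13195 genes tested in the liver, 2.1% were higher without overlap. At an unadjusted p at most 0.05, 6 of the 8 genes were higher in edgeR's quasi-likelihood test and 0 were lower, against 3.96% and 3.58% of all genes. At a Benjamini-Hochberg adjusted p under 0.05, 0 of the 8 passed in edgeR, and 0.00758% of all genes did. By DESeq2's Wald test, 6 of the 8 were higher after adjustment, against 0.834% of all genes. All 8 log2 fold changes were above 0 (Hsd17b7 barely, and below 0 when libraries were scaled by total counts), against 46.1% of those of all genes. Their median was 1.06, against -0.03 for all genes.

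**Figure D1:**
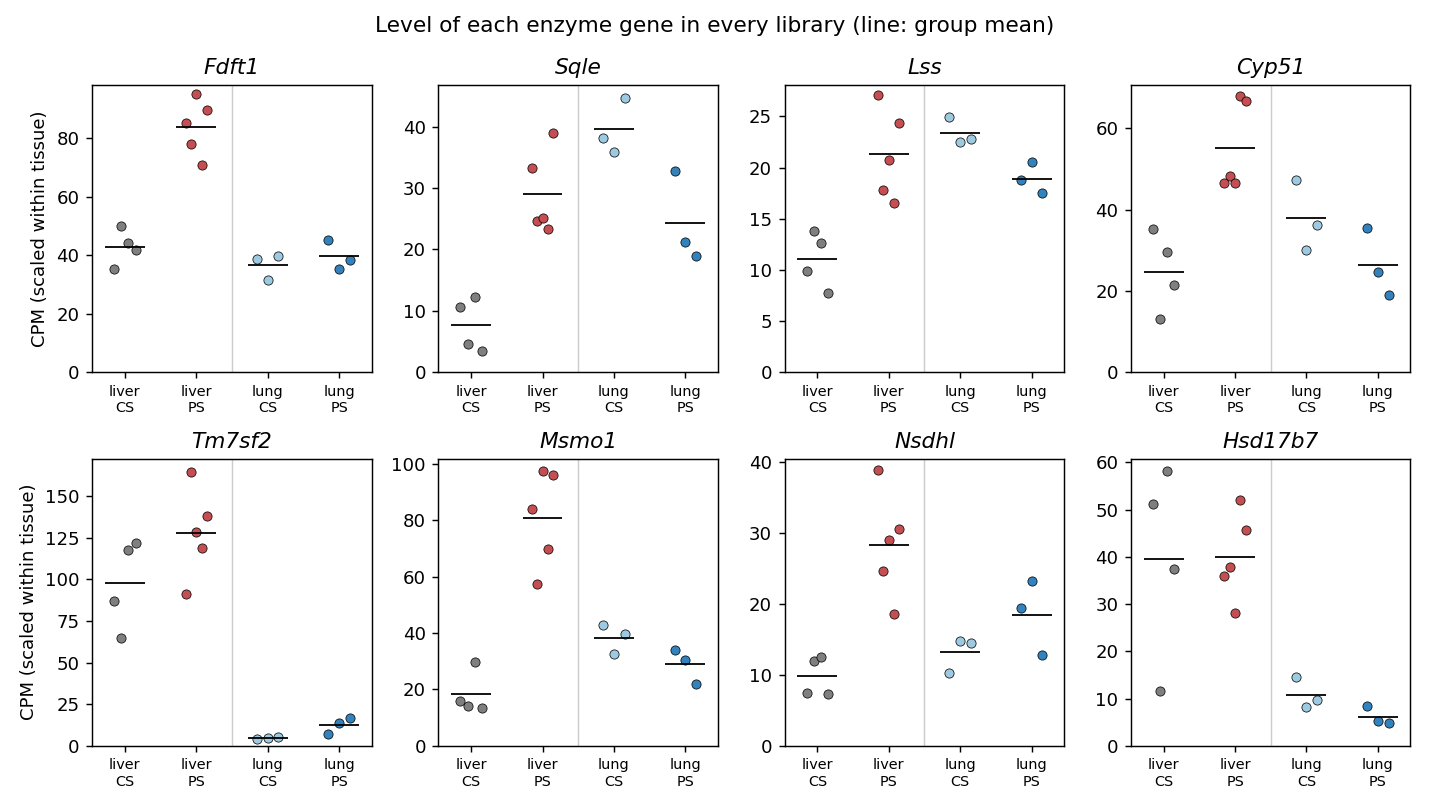
Level of the 8 enzyme genes in every library, as CPM scaled within each tissue (y axes start at 0), with a point per library and a line at the group mean. In the liver (grey CS, red PS) the diets do not overlap in Fdft1, Sqle, Lss, Cyp51, Msmo1 and Nsdhl, and in the lung (light blue CS, dark blue PS) Tm7sf2 is higher on PS in 3 of 3 mice.

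The widest difference in the liver was in Msmo1, the oxidase that opens the removal of the last methyl groups. Its level was 16.1, 14.2, 29.9 and 13.6 CPM in the CS livers, and 83.9, 57.4, 97.7, 69.8 and 96.1 CPM in the PS livers. CS replicate 3 was the highest of its group, and the lowest PS liver still lay well above it. This was a log2 fold change of 2.14 (95% interval 1.52 to 2.75, edgeR adjusted p = 0.0540).

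Sqle, the rate-limiting epoxidase, was at 10.5, 4.51, 12.3 and 3.46 CPM in the CS livers. In the PS livers it was at 33.2, 24.6, 25.1, 23.3 and 38.9 CPM. The CS livers fell into a higher and a lower pair, and no PS liver came near either. Sqle thus had a log2 fold change of 1.91 (95% interval 1.10 to 2.71, edgeR adjusted p = 0.114).

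Nsdhl, the dehydrogenase that follows Msmo1, was at 7.39, 11.99, 12.5 and 7.23 CPM in the CS livers and at 38.9, 24.6, 29.0, 18.6 and 30.6 CPM in the PS livers. Its log2 fold change was 1.53 (95% interval 0.96 to 2.11, edgeR adjusted p = 0.0974). PS replicate 4 was the lowest PS liver for Nsdhl, as it was for Fdft1, Sqle and Lss.

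Fdft1, the entry into the sterol branch, varied least among the livers of a group. It was at 35.3, 50.1, 44.3 and 41.7 CPM in the CS livers and 85.3, 78.0, 95.1, 70.9 and 89.6 CPM in the PS livers. The diets differed by 0.97 on the log2 scale (95% interval 0.60 to 1.33, edgeR adjusted p = 0.0974). Ctsb, which overlaps it, had a mean of 477 CPM on CS (SD 35.1, n = 4) and 516 CPM on PS (SD 48.1, n = 5), a log2 fold change of 0.11 (edgeR adjusted p = 0.944).

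Lss, the cyclase, ranged from 7.75 to 13.8 CPM in the CS livers and from 16.6 to 27.1 CPM in the PS livers, with a log2 fold change of 0.95 (95% interval 0.45 to 1.44, edgeR adjusted p = 0.227). Cyp51, the demethylase, ranged from 13.0 to 35.1 CPM and from 46.5 to 67.9 CPM, with a log2 fold change of 1.16 (95% interval 0.55 to 1.76, edgeR adjusted p = 0.227). In both genes the gap between the diets was narrow beside the spread within them.

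The other pair of enzymes did not show such a gap. Hsd17b7, the last reductase, was at 51.3, 11.6, 58.1 and 37.3 CPM in the CS livers and 36.0, 37.9, 28.0, 52.1 and 45.7 CPM in the PS livers. Both the highest and the lowest of these values were in CS livers. The estimate of 0.01 on the log2 scale was near 0, and its 95% interval of -0.80 to 0.83 leaves room for a difference in either direction. Without CS replicate 2, its low value, the log2 fold change was -0.29. Tm7sf2, the reductase after Cyp51, ranged from 64.8 to 122 CPM in the CS livers and from 91.3 to 165 CPM in the PS livers. Its log2 fold change was 0.39 (95% interval -0.12 to 0.90, edgeR adjusted p = 0.761).

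Across the 9 livers, Msmo1 and Sqle followed the mean of the other 7 genes most closely (r = 0.967 and 0.953), and Tm7sf2 and Hsd17b7 least (r = 0.543 and 0.284). These correlations include the diet difference and describe the livers only. Among genes outside the pathway segment, the 5 whose levels were most like the mean of the 8 included Hlf (r = 0.970), Adi1 (0.969), Pklr (0.967) and Galm (0.964). These were picked as the highest r of many genes over only 9 livers, where high values can arise by chance. Hlf encodes a transcription factor of the circadian output and Pklr the liver pyruvate kinase.

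The same question was asked of the lung with 3 mice of each diet. Tm7sf2 rose 2.60-fold in the PS group and was the 1 gene of the 8 with an adjusted p under 0.05. Over the 16717 genes tested in the lung, 4.8% were higher and 4.43% lower by this measure. At an unadjusted p at most 0.05, Tm7sf2 was higher and Sqle and Hsd17b7 were lower, against 15.6% of all genes higher and 14.5% lower. Every PS lung lay above every CS lung in Tm7sf2 and below every CS lung in Sqle and Lss, while the other 5 genes overlapped. Such gaps were common in the lung, with 17.3% of all genes higher and 18.8% lower without overlap, so the count of the 8 genes is close to that background. Of the 8 log2 fold changes 3 were above 0, against 50.4% of those of all genes, and their median was -0.36, against 0.01 for all genes.

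Tm7sf2 was at 4.30, 4.63 and 5.43 CPM in the CS lungs and 7.22, 13.4 and 16.7 CPM in the PS lungs. The CS lungs lay close together, and the PS lungs ranged over 2.32-fold. This rise was 1.38 on the log2 scale (SE 0.31, edgeR adjusted p = 0.0368). When a lung was left out it remained past the adjustment in 1 of 6 fits, that without PS replicate 1, with an edgeR adjusted p of 0.0523 to 0.129 in the others. Vps51, which lies under the model of Tm7sf2 in the tables, had a mean of 2.65 CPM on CS (SD 0.194, n = 3) and 3.87 CPM on PS (SD 0.400, n = 3), a log2 fold change of 0.55 (edgeR adjusted p = 0.206). Its part in the reads of Tm7sf2 was not tested.

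LBR, a protein of the inner nuclear membrane, carries the same sterol reductase activity as TM7SF2. Lbr was at 81.4, 64.5 and 63.4 CPM in the CS lungs and 29.9, 17.8 and 50.0 CPM in the PS lungs. Here every PS lung was below every CS lung, the opposite order to Tm7sf2. Lbr had a log2 fold change of -1.10 (SE 0.32, edgeR adjusted p = 0.0628). The log2 ratio of Tm7sf2 to Lbr, each per kb of gene length, was -4.10 ± 0.35 (SD, n = 3) in the CS lungs and -1.58 ± 0.85 (SD, n = 3) in the PS lungs. This ratio was chosen after the values were seen, and the two-sided exact permutation p was 0.1, the smallest that 3 mice against 3 allow. In the liver, where Tm7sf2 exceeded Lbr in every library, the log2 ratio was 5.03 ± 1.21 (SD, n = 4) on CS and 4.90 ± 0.43 (SD, n = 5) on PS (exact permutation p = 0.849).

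Sqle was at 38.2, 35.9 and 44.7 CPM in the CS lungs and 32.8, 21.3 and 18.9 CPM in the PS lungs. PS replicate 1 came within a few CPM of the lowest CS lung. The log2 fold change was -0.71 (95% interval -1.20 to -0.21, edgeR adjusted p = 0.0715). Hsd17b7 was at 14.5, 8.12 and 9.66 CPM in the CS lungs and 8.40, 5.19 and 4.75 CPM in the PS lungs. Here PS replicate 1 lay above CS replicate 2, so the diets overlapped. The log2 fold change was -0.82 (95% interval -1.52 to -0.12, edgeR adjusted p = 0.115). Without PS replicate 1, Sqle (edgeR adjusted p = 0.00983), Hsd17b7 (0.0418) and Cyp51 (0.0478) were also lower after adjustment, in a fit that called 6.95% of all genes lower, up from 4.43%. This lung differed from the other PS lungs in markers of other tissues. Its sum of 5 heart muscle genes was 417 CPM, against 32.4 and 69.4 CPM in the other PS lungs and 158 to 237 CPM in the CS lungs. The heart genes did not move together. Myh6, Myl7 and Tnnt2 reached 142, 118 and 95.6 CPM in the PS lungs, against 56.1, 37.3 and 47.7 CPM in the CS lungs. Actc1 was at most 56.2 CPM in the PS lungs and at least 60.1 CPM in the CS lungs. Nppa was at most 5.33 CPM in the PS lungs and 8.74 CPM in the CS lungs. In PS replicate 1 the sum of 5 fat cell genes was 118 CPM, within the range of the CS lungs (22.5 to 150 CPM). The other PS lungs were at 10.4 and 7.51 CPM. The sum of 5 ciliated airway genes was 225 to 367 CPM in the CS lungs and 92.3 to 257 CPM in the PS lungs, and the part of these tissues in the values of the 8 enzymes was not tested.

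The 95% interval of the log2 fold change held 0 for the other 5 genes in the lung. It was -0.31 for Lss (95% interval -0.65 to 0.03), -0.53 for Cyp51 (-1.10 to 0.04) and -0.41 for Msmo1 (-0.85 to 0.03). For Fdft1 it was 0.12 (-0.25 to 0.48), and for Nsdhl 0.48 (-0.09 to 1.05). Akap9, which overlaps Cyp51, fell by 0.90 on the log2 scale in the same lungs (edgeR adjusted p = 0.0217), and its part in the reads of Cyp51 was not tested. The call of Akap9 was lost without CS replicate 3, in a fit that called 0 of 17190 genes. Across the 6 lungs Msmo1 and Cyp51 followed the mean of the other 7 genes (r = 0.938 and 0.909), whereas Tm7sf2 and Nsdhl ran against it (r = -0.847 and -0.328). The 5 other genes most like the mean of the 8 in the lung were Vnn1 (r = 0.997), Txndc5 (0.991), Ank1 (0.983), Tmem50b (0.976) and Ndc1 (0.973), none of them a gene of sterol synthesis. They were picked as the highest r of many genes over only 6 lungs, where values near 1 can arise by chance. The mean they follow is of genes that did not all move together in the lung.

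To ask whether the diet acted differently on these genes in the tissues, the lung effect less the liver effect was tested in 1 fit of all 15 libraries. The difference was negative in 7 of the 8 genes, where 50.1% of all 17696 genes tested had a difference above 0. For Msmo1 the difference was -2.58 in log2 units (standard error 0.39, edgeR adjusted p = 0.0296), the only one of the 8 with an adjusted p under 0.05, against 0.017% of all genes lower and 0.00565% higher. At an unadjusted p at most 0.05, 6 of the 8 were lower and 1 was higher, against 5.4% and 5.54% of all genes. By DESeq2's Wald test 5 of the 8 were lower after adjustment, against 0.785% of all genes. The median difference of the 8 was below -1 on the log2 scale, and that of all genes was 0.00.

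For Sqle the difference was -2.65 (95% interval -3.71 to -1.58, edgeR adjusted p = 0.128). It was -1.71 for Cyp51 (95% interval -2.63 to -0.80), -1.30 for Lss (-1.92 to -0.68), -1.09 for Nsdhl (-1.91 to -0.27) and -0.90 for Fdft1 (-1.40 to -0.40). Each of these intervals lay below 0, although none passed the adjustment. Hsd17b7 had a difference of -0.86 with an interval that held 0 (-2.06 to 0.34). Tm7sf2 was alone in the other direction, at 0.94 (0.10 to 1.78, edgeR unadjusted p = 0.0297). With mouse as a block, on the 6 mice that gave both tissues, the difference in Msmo1 was -2.66 with an edgeR adjusted p of 0.272. In fits that each left out a library it ran from -2.92 to -2.40, with adjusted p from 0.00226 to 0.203, and it remained past the adjustment in 4 of the 15.

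**Figure D2:**
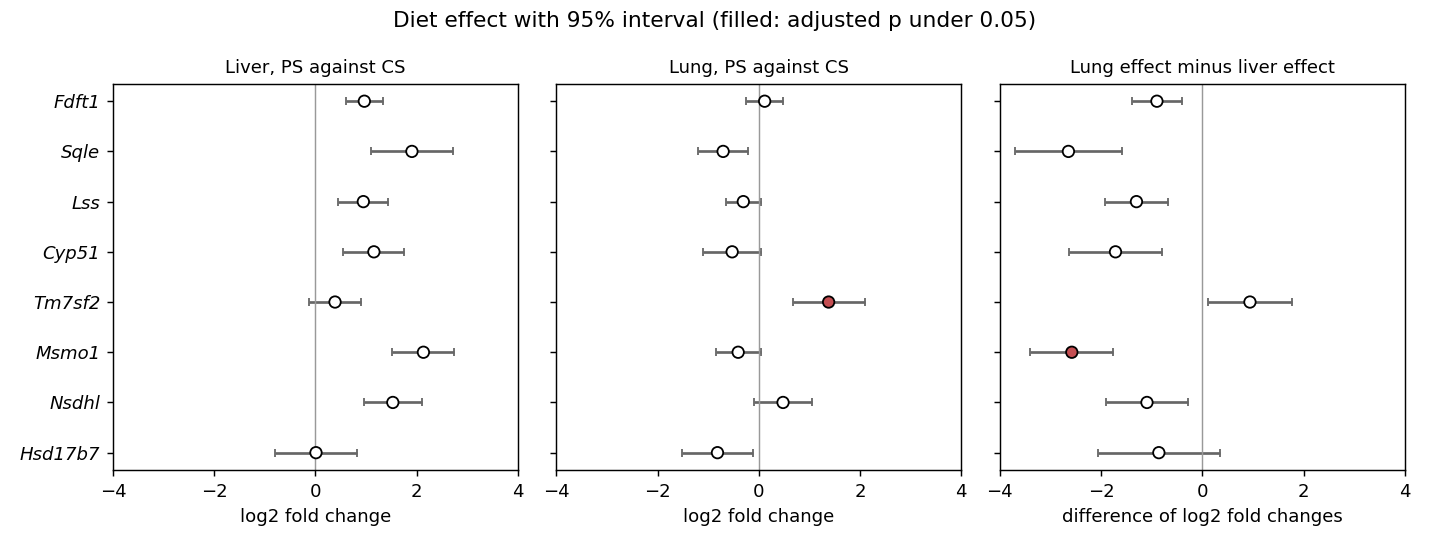
Log2 fold change of PS against CS for each enzyme gene in the liver (9 mice) and the lung (6 mice), and the lung effect minus the liver effect, with 95% intervals from edgeR. Points are filled where the adjusted p was under 0.05, as for Tm7sf2 in the lung (1.38) and Msmo1 in the difference (-2.58).

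Levels of different genes were compared as CPM per kb of gene length, with 1 scaling over all 15 libraries. The length joins all annotated exons of a gene, from 2853 bases for Nsdhl to 10787 for Lss, and the order of genes depends on it. For Tm7sf2 the length is 5593 bases in the tables and 4403 in GENCODE release M21. In the CS livers Tm7sf2 was the highest of the 8 at 25.7 ± 7.58 CPM per kb (SD, n = 4). Fdft1 followed at 14.8, Hsd17b7 at 11.4, Cyp51 at 8.22, Nsdhl at 5.00, Msmo1 at 4.39, Sqle at 2.03 and Lss at 1.49. Of the neighbours in this order only Msmo1 and Sqle kept their places in all 4 livers. The spans of the others crossed in at least 1 mouse, as for Tm7sf2 and Fdft1, which changed places in CS replicate 2.

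In the PS livers Tm7sf2 (33.8 CPM per kb) and Fdft1 (29.2) again led, but Msmo1 had moved from the sixth place to the third at 19.4. Cyp51 was at 18.4, Nsdhl at 14.6, Hsd17b7 at 11.5, Sqle at 7.71 and Lss at 2.91. Fdft1 exceeded Msmo1, Hsd17b7 exceeded Sqle, and Sqle exceeded Lss in 5 of 5 livers. The summed level of the 8 genes was 73.0 ± 16.0 CPM per kb (SD, n = 4) in the CS livers and 138 ± 10.7 (SD, n = 5) in the PS livers. Tm7sf2 made up 35.2% of this sum on CS and 24.6% on PS, and the share of Msmo1 was 6.01% and 14.1%.

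In the CS lungs Fdft1 (4.92 CPM per kb) and Cyp51 (4.87) were level within their spread. Sqle was at 4.06, Msmo1 at 3.54, Nsdhl at 2.63, Lss at 1.23 and Hsd17b7 at 1.20. Tm7sf2, the highest in the liver, was the lowest in the lung at 0.485 ± 0.057 (SD, n = 3). In the PS lungs Fdft1 was at 5.23, Nsdhl at 3.599, Cyp51 at 3.33, Msmo1 at 2.62 and Sqle at 2.45. Tm7sf2, at 1.23, now stood above Lss (0.975) in 2 of 3 mice, and Hsd17b7 was the lowest at 0.668. The sum over the 8 genes was 22.9 ± 2.24 (SD, n = 3) in the CS lungs and 20.1 ± 3.67 (SD, n = 3) in the PS lungs, with ranges that overlapped.

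**Figure D3:**
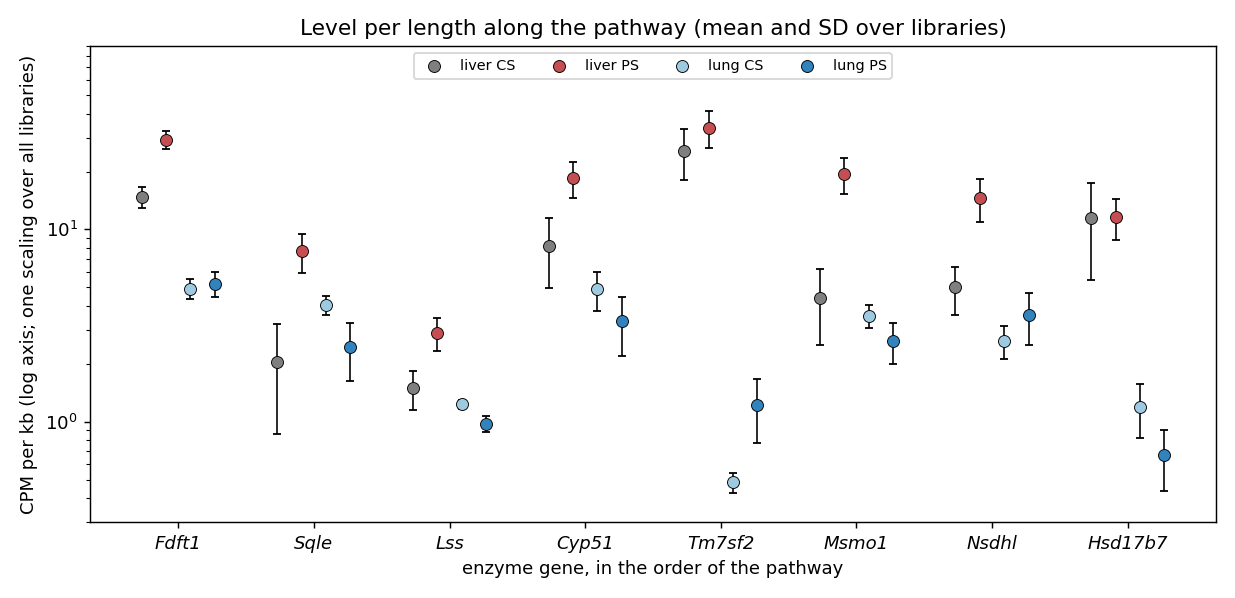
Level of each enzyme gene per kb of gene length (log axis), in the order of the pathway, as mean and SD over the libraries of a group. Tm7sf2 runs from 25.7 CPM per kb in the CS livers down to 0.485 in the CS lungs, and Msmo1 lies at 19.4 in the PS livers against 2.62 to 4.39 in the other groups.

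Lung was then compared with liver on each diet. On CS the sign of the log2 ratio of Lss, Cyp51, Msmo1 and Nsdhl depended on how the libraries were scaled, and on PS 8 of 8 were below 0 with TMM, DESeq2's size factors and total counts. The 10 genes with the most counts held 16.6% to 28.8% of a liver library and 9.82% to 15.2% of a lung library. With TMM scaling the median log2 ratio of lung to liver over all genes was 0.18 on both diets, and with scaling by total counts alone it was 1.55 on CS and 1.56 on PS. Subtracting that median takes out the scaling by construction. Set against it, 7 of the 8 genes on CS and 8 of 8 on PS were lower in the lung than the middle gene, and the exception on CS was Sqle.

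Relative to the median of all genes under TMM, Tm7sf2 was lower in the lung by 5.90 on the log2 scale on CS, and Hsd17b7 by 3.43. Fdft1 was at -1.76, Nsdhl at -1.10, Cyp51 at -0.93, Msmo1 at -0.48 and Lss at -0.45, and Sqle at 0.81. On PS the values were -4.96 for Tm7sf2, -4.29 for Hsd17b7, -3.06 for Msmo1, -2.66 for Fdft1, -2.65 for Cyp51, -2.19 for Nsdhl, -1.83 for Sqle and -1.75 for Lss. Tm7sf2 was thus nearer to the liver on PS, and the other 7 were farther from it. The comparisons on CS and PS rest on different libraries, and the change from one to the other is the difference of the diet effects given above.

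As fitted with TMM, 1 of the 8 genes was higher and 5 were lower in the lung on CS at an edgeR adjusted p under 0.05, where 37% of all genes were higher and 30% lower. Sqle was higher (log2 ratio 0.99, adjusted p = 0.0213 from edgeR). Fdft1, Cyp51, Tm7sf2, Nsdhl and Hsd17b7 were lower, and Lss and Msmo1 did not pass (adjusted p = 0.268 and 0.338 from edgeR). With the trend with gene length removed, Lss (-1.22, edgeR adjusted p = 0.00018) and Msmo1 (-0.88, 0.0093) were lower too, where 39.5% of all genes were. With the GC trend removed they were at -0.67 (edgeR adjusted p = 0.0198) and -0.69 (0.0345), where 38% of all genes were lower. The call of Sqle was lost in both (0.45, edgeR adjusted p = 0.257, and 0.63, 0.116). The call of Cyp51 (log2 ratio -0.76, edgeR adjusted p = 0.0426) was lost with mouse as a block (0.0991), DESeq2's size factors (0.0859), DESeq2's Wald test (0.0838), no filter (0.0708), a minimum of 10 counts (0.166) and in 5 of 15 fits that each left out a library (up to 0.194, without liver CS replicate 1). That of Sqle was also lost without liver CS replicate 4 (0.0590) or lung CS replicate 3 (0.0643), and that of Nsdhl without lung CS replicate 1 (0.0529) or with a minimum of 10 counts (0.0551). On PS, 8 of 8 were lower, with log2 ratios of -4.78 for Tm7sf2 to -1.57 for Lss, where 30.7% of all genes were lower and 38% higher. With total counts alone, Sqle, Lss and Msmo1 were higher and Tm7sf2 and Hsd17b7 lower on CS, where 66.8% of all genes were higher and 12.9% lower. On PS 6 of the 8 were then lower, against 13.1% of all genes, with log2 ratios of -0.28 for Sqle and -0.18 for Lss that did not pass.

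**Figure D4:**
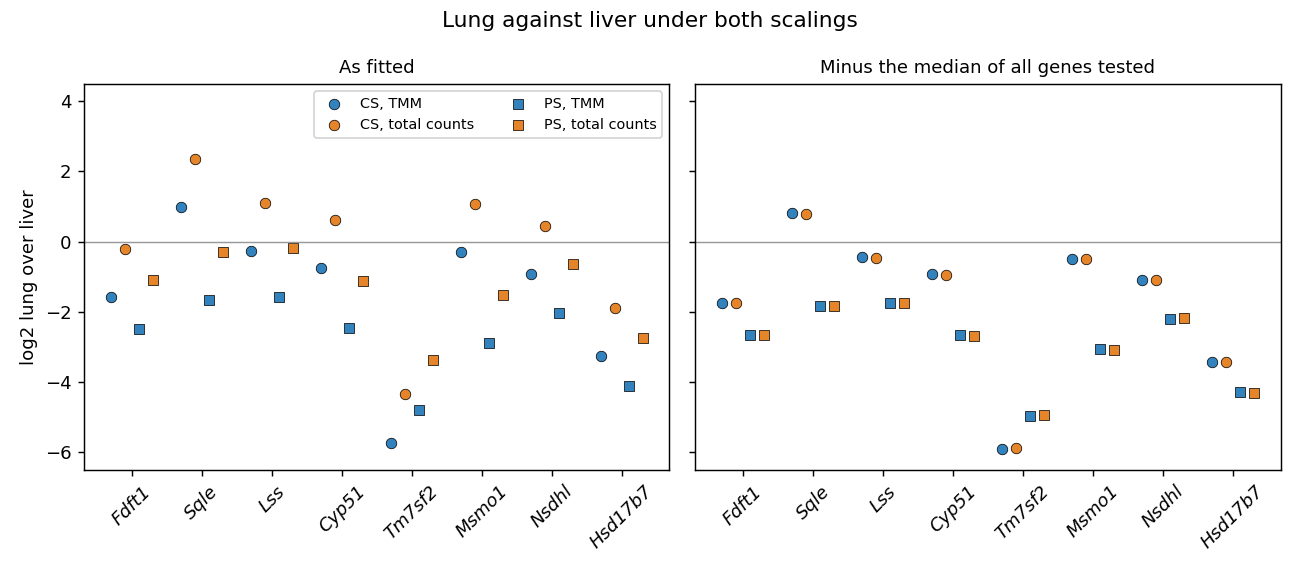
Log2 ratio of lung to liver for each enzyme gene on CS (circles) and PS (squares), with TMM scaling (blue) and total counts (orange), as fitted on the left and minus the median of all genes on the right. On the left Lss, Cyp51, Msmo1 and Nsdhl change sign on CS between the scalings, and on the right, where the subtraction makes the scalings coincide by construction, Sqle on CS is the only gene above 0.

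Genes on either side of this segment were counted from lists chosen by function. Of 8 genes of the mevalonate part, 8 had higher means in the PS livers and 6 were higher at an unadjusted p at most 0.05, against 46.1% and 3.96% of all genes, with a median log2 fold change of 1.08. After adjustment 0 of the 8 passed in the liver in edgeR. Fdps, the synthase of farnesyl diphosphate, was higher by 3.23 on the log2 scale (edgeR adjusted p = 0.114), with 1 to 5 counts in the CS livers and 10 to 31 in the PS livers. Mvd, the decarboxylase of the pathway, was higher by 1.39 (edgeR adjusted p = 0.214). In the lung 7 of the 8 had lower means, and 2 were lower after adjustment, against 4.43% of all genes. Idi1, the isomerase that makes dimethylallyl diphosphate, fell by 2.67 on the log2 scale (edgeR adjusted p = 0.0154). These lung calls were lost without lung CS replicate 3, in a fit that called 0 of 17190 genes.

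Of the 4 enzymes after zymosterol, 1 was higher in the liver at an unadjusted p at most 0.05, against 3.96% of all genes. This was Dhcr7, the last reductase, at 0.65 (edgeR unadjusted p = 0.00759). In the lung 1 of the 4 was lower after adjustment, against 4.43% of all genes. This was Sc5d, the desaturase before Dhcr7, which fell by 0.67 (edgeR adjusted p = 0.0322). Of 9 genes tested whose proteins stand in for or assist the 8 enzymes, 1 was higher in the liver at the unadjusted threshold (3.96% of all genes) and 1 in the lung after adjustment (4.8%). Erg28, a scaffold that holds the demethylating enzymes together, was higher in the liver by 0.58 (edgeR unadjusted p = 0.0209). Sec14l2, a lipid-binding protein that stimulates squalene epoxidase, rose in the lung by 0.63 (edgeR adjusted p = 0.0475). Of 10 genes of SREBP control and its targets, 5 were higher and 2 lower in the liver at the unadjusted threshold, against 3.96% and 3.58% of all genes. Insig1, which retains SREBP in the endoplasmic reticulum and is itself a target, was higher by 1.33 in the liver (edgeR adjusted p = 0.0974) and fell by 0.60 in the lung (edgeR adjusted p = 0.0457). Srebf2, the gene of SREBP2, was at 0.42 in the liver (95% interval -0.01 to 0.84) and at -0.26 in the lung (-0.56 to 0.04). The lung calls of Sc5d, Sec14l2 and Insig1 were lost without lung CS replicate 3, in a fit that called 0 of 17190 genes.

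Other measures moved with the diet in the same libraries. Of 14 genes of the circadian clock and its output, 9 were higher and 3 lower in the PS livers at an unadjusted p at most 0.05, against 3.96% and 3.58% of all genes. In the PS lungs 8 were higher and 3 lower, against 15.6% and 14.5%. Nr1d1, a clock repressor, was higher by 1.29 in the liver (edgeR adjusted p = 0.103) and rose by 1.29 in the lung (edgeR adjusted p = 0.0370). Its lung call was lost without lung CS replicate 3, in a fit that called 0 of 17190 genes. The summed level of the clock list was 239 to 436 CPM in the CS livers and 447 to 762 CPM in the PS livers, without overlap, and 509 to 653 and 611 to 941 CPM in the lungs. The time of day of sampling is not given in the sources used here, and the part of the clock genes in the values of the 8 enzymes was not tested.

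Most sums of cell type markers rested mainly on 1 gene. In the lung, the sum of 7 alveolar type II genes was 19940 to 20780 CPM on CS and 22060 to 34830 CPM on PS. Most of it was Sftpc, a surfactant protein gene, with means of 13286 and 23403 CPM, and 4 of the 7 genes had log2 fold changes below 0, such as Abca3, with means of 196 and 98.0 CPM (edgeR adjusted p = 0.0549). The sum of 5 B lineage genes was 682 to 1240 CPM on CS and 1353 to 1766 CPM on PS. Most of it was Jchain, the joining chain of antibodies (means 916 and 1452 CPM), and 3 of the 5 were below 0, such as the B cell gene Ms4a1 at -1.08 (edgeR adjusted p = 0.0867). In the liver, the sum of 7 hepatocyte genes was 78110 to 110700 CPM on CS and 92710 to 118400 CPM on PS. Most of it was Alb, the albumin gene (means 58737 and 77647 CPM), and 4 of the 7 were below 0, with 0 of 7 at an unadjusted p at most 0.05 in edgeR. The sum of 5 fat cell genes was 22.5 to 73.3 CPM on CS and 5.25 to 22.2 CPM on PS. Nearly all of it was Cidec, a lipid droplet gene (means 37.0 and 9.75 CPM), while the defining marker Adipoq was at 0 to 4 counts per liver. The sum of 5 macrophage genes was 129 to 199 CPM on CS and 49.0 to 144 CPM on PS, with 5 of 5 log2 fold changes below 0, where 46.1% of those of all genes were above 0, and 2 of the 5 lower at an unadjusted p at most 0.05, against 3.58% of all genes. Genes of the mitochondrial genome held 3.33% to 14.4% of the counts in the CS livers, 4.81% to 13.3% in the PS livers, 2.94% to 3.51% in the CS lungs and 3.69% to 7.28% in the PS lungs. The part of these cell types and of RNA quality in the values of the 8 enzymes was not tested.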

How the data were processed

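RNA sequencing of liver (4 CS, 5 PS) and lung (3 CS, 3 PS) was analysed. The authors purified poly-A RNA, aligned reads to mm10 with HISAT2 2.0.5 and counted reads per gene with featureCounts 1.5.0-p3, and the deposited counts are raw. The annotation release and strand setting are not given in the sources used here. The FPKM values deposited by the authors were scaled in each tissue separately and were used only in alternatives.

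Groups, replicates and mice were taken from the labels. Counts were compared with edgeR 4.0.16 (R 4.3.3), after TMM scaling, by the robust quasi-likelihood test on genes kept by filterByExpr, in a fit for each tissue and in 1 fit of all 15 libraries for differences between tissues. Benjamini-Hochberg adjustment ran over all genes tested. A gene was called at an unadjusted p at most 0.05 in the liver, where the adjustment left few genes, and at an adjusted p under 0.05 elsewhere. The fits were tested on simulated data in which 200 genes were changed by 1.5 on the log2 scale. The liver fit called 110 of these and 3 unchanged genes, and the lung fit 140 and 17. The test of the difference between tissues called 31 and 1.

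CPM within a tissue used the scaling of that tissue. CPM per kb used the scaling of all libraries and the gene length in the tables. Likeness was Pearson's r of log2(CPM + 0.5) with the mean z-score of the 8 genes, for genes whose mean log2 CPM was 1 or more, and copies were sought with BLAST 2.17.0+ at 90% identity over at least 200 bases. All 8 genes are named, with at most 4 genes of each further list, those with the smallest p, apart from 1 gene that is not reported here. The genes and lists were chosen with earlier results of these data known.

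Alternatives were DESeq2's size factors and its Wald test (1.42.0), total counts without a scaling factor (added after seeing the data), the unfiltered table, a minimum of 10 counts per library, limma-trend (3.58.1) on log2(FPKM + 1) and log2(FPKM + 0.1), loess offsets (span 0.3) for gene length or for GC content, blocks, and leaving out each library in turn. Liver and lung libraries of 1 mouse are paired by the mouse named in the labels (r of their deviations -0.0556 to 0.122). No library was a repeat deposit of another within counting noise. Depth was 14410117 to 19396057 counts per library, and p-values within a tissue measure the spread between mice. The fit of all libraries took them as independent, except with mouse as a block, although some mice gave both tissues.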

Additional observations from a re-analysis of the deposited data

Results flagged for a closer look

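Msmo1 in CS replicate 3 of the liver, at 29.9 CPM, lay farther from the other 3 CS livers (13.6 to 16.1 CPM) than Dixon's criterion allows for 4 samples. It was the 1 such value in 16 checks of the 8 genes in the liver groups, and chance alone passes this limit in about 1 in 20 groups. Without this liver the diet effect on Msmo1 in the liver was 2.47 on the log2 scale, and its edgeR adjusted p was 0.00861.

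For Msmo1 the diet effect in the lung less that in the liver was -2.58 on the log2 scale (edgeR adjusted p = 0.0296). This call was lost with mouse as a block (adjusted p = 0.272 in edgeR) and with the GC trend removed (0.0553), and it remained in 4 of 15 fits that each left out a library. Its log2 fold change was 2.14 in the liver and -0.41 in the lung, where the 95% interval held 0.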

How the results depend on the processing

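At the unadjusted threshold, 6 of the 8 genes were higher in the liver under all 10 alternatives and in all 9 fits that each left out a liver. After adjustment the number in the liver was 0, but 6 with DESeq2's Wald test, 3 without a filter, 1 with at least 10 counts in every library, 1 with either form of limma-trend, and 0 to 3 when a liver was left out, with the 3 reached without CS replicate 2. Over all genes, 1 of 13195 passed in the liver and 163 with DESeq2's Wald test. The number was 26 of 24517 without a filter and 65 of 13368 without CS replicate 2. In the lung 1 gene passed the adjustment, against 2 with total counts, no filter or DESeq2, 0 with either form of limma-trend (for Tm7sf2, adjusted p = 0.0614 and 0.0569) and 0 to 4 when a lung was left out. Over all genes, 1542 of 16717 passed in the lung, 1358 with total counts, 3090 with DESeq2 and 2306 of 28739 without a filter. Without CS replicate 3 the number over all genes was 0. It was 9, 23 and 26 without PS replicate 2, CS replicate 1 and CS replicate 2. Without PS replicate 1 it was 2949, and without PS replicate 3 it was 2256. At the unadjusted threshold the lung count of the 8 genes was 3, against 6 with total counts or no filter and 2 to 5 when a lung was left out. For the difference between tissues the count of the 8 was 1, against 2 without a filter, 5 with DESeq2, 0 with the GC trend removed (Msmo1, adjusted p = 0.0553), 0 with mouse as a block and 0 to 2 when a library was left out. Over all genes the difference passed in 4 of 17696, in 10 of 30732 without a filter and in 233 with DESeq2. When a library was left out it passed in 0 to 12 genes. The count of the 8 for lung against liver ran from 4 to 6 on CS and stayed at 8 on PS when a library was left out. Those fits called most genes in either direction, from 10941 of 18164 to 12176 of 17613 on CS. On PS they called from 11265 of 18021 to 12836 of 17613. Hsd17b7 in the liver, near 0, changed sign with total counts (-0.040) and the GC trend removed (-0.027), and ran from -0.29 to 0.26 when a liver was left out. Fdft1 in the lung ran from -0.0037 to 0.21, turning without CS replicate 2. For lung against liver on CS with total counts, Lss was at 1.10, Cyp51 at 0.61, Msmo1 at 1.06, Nsdhl at 0.45 and the median of the 8 at 0.53. Msmo1 on CS ran from -0.43 to 0.032 when a library was left out, turning without liver CS replicate 3. The cause of these changes was not tested, beyond the scaling itself. Of the other values, 867 kept their direction and side of the threshold, 39 lost their call, 16 gained one and 1 moved in size. Replicate numbers did not pair the mice of the diets (r of deviations -0.411 to -0.0241 in the liver and -0.00522 to 0.0910 in the lung), and with the number as a block 0 genes in the liver and 1 in the lung passed the adjustment. Mouse as a block lost the calls of Msmo1 in the difference and Cyp51 on CS, and changed no other call.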
